A study of Homo sapiens with 16 samples.

Results

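N-glycosylation builds a branched sugar on the lipid dolichol in the endoplasmic reticulum (ER), transfers it whole to asparagines of new proteins and then trims and rebuilds it. The genes described here are 46 that encode the enzymes of this route. They were chosen by gene symbol and by no rule on measured values, though with earlier results of these data known. A gene counted as measured when the array held a probe set (a group of short oligonucleotides that report 1 transcript) annotated with that symbol alone. Where several were, the one with the greatest average across the 16 arrays stood for the gene. By this rule 42 of the 46 genes were measured, among 19775 genes in all. PMM2 and SRD5A3 had no probe set named for them here, GMPPB and ALG11 appeared only on probe sets that name further genes, and none of these 4 entered a count.

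The study measured RNA in 2 human mammary cell lines after 24 h with or without 2-deoxy-glucose (2DG). MCF10A is an immortalized epithelial line that does not form tumours, and the MDA-MB-231 line comes from a breast carcinoma. Both lines were plated at low density in DMEM/F12 with 17.5 mM glucose and antibiotics, and on the next day received 2DG at 50 mM or an equal volume of water as vehicle. The MCF10A medium also held 1 mM glutamine, 5% horse serum, insulin, human epidermal growth factor, cholera toxin and hydrocortisone. The MDA-MB-231 medium held 2 mM glutamine and 10% fetal bovine serum. Line and medium can therefore not be told apart. The 4 groups (each line on vehicle or 2DG) had 4 replicates each, lettered A to D, which the design text describes as separate biological replicates handled side by side.

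2DG is taken up and phosphorylated like glucose, and because it lacks the hydroxyl group in which glucose and mannose differ it can also stand in for mannose. Mannose phosphate is turned into GDP-mannose, which charges dolichol phosphate, and the ALG enzymes add N-acetylglucosamine, mannose and glucose one at a time to the dolichol-linked chain. The oligosaccharyltransferase complex moves the finished chain onto protein. Glucosidases and mannosidases trim it, UGGT1 puts a glucose back on glycans of unfolded proteins, and the MGAT enzymes of the Golgi start its branches.

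Values are log2 expression after robust multi-array average (RMA), so a difference of 1 is a 2-fold change of signal, and small signals are compressed. Changes were called in limma where the p, adjusted by Benjamini-Hochberg across the 19775 genes, was below 0.05, and errors are standard errors (SE) of that fit with n = 4 arrays a group. Levels are compared between groups for 1 gene and never between genes. In RNA from whole cultures, fewer cells that make a transcript and less of it per cell cannot be told apart. The 6 measured MCF10A markers read lower in MDA-MB-231, with E-cadherin (CDH1) at 13.06 and 4.62 on vehicle, and 5 of the 6 MDA-MB-231 markers read higher there, SPOCK1 being the exception. The leukocyte gene PTPRC lay between 3.75 and 4.17 in the group means, while the fibroblast collagen COL1A1 rose from 9.04 to 11.15 with 2DG in MCF10A and the endothelial gene PECAM1 from 7.28 to 8.22 in MDA-MB-231. The 3' minus 5' difference of the actin control probes, which grows as RNA shortens, averaged 0.392 and 0.55 in MCF10A on vehicle and 2DG. In MDA-MB-231 it averaged 0.598 and 1.03, with 1.09 on vehicle replicate B against at most 0.49 for the MCF10A vehicle arrays. MDA-MB-231 vehicle replicates A, C and D read 0.38, 0.45 and 0.47, and the 2DG arrays of that line 0.97 to 1.13. Apart from replicate B the ratio thus went with 2DG in MDA-MB-231. A fit with the ratio as a covariate can part them there mostly through that array. What part these markers and this ratio have in the changes below was not tested beyond a fit with the ratio as a covariate.

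The pathway did not move as a block under 2DG. The enzymes that build the lipid-linked sugar mostly fell in both lines, and the subunits of the transferase that uses it mostly rose. In MCF10A, 18 of the 42 genes rose and 17 fell (83.3%). The share called was 54.2% over all genes, 29% higher and 25.2% lower, and 77.4% over the 11343 genes with a mean signal at least that of the dimmest of the 42. In MDA-MB-231, 15 rose and 20 fell, again 83.3%, where 50.9% of all genes were called (25.5% higher and 25.4% lower) and 74.2% of those at least as bright. The median change over the 42 genes was -0.01 in MCF10A and -0.04 in MDA-MB-231, against 0.02 and 0.03 over all genes. Changes of at least 2-fold were few, 3 genes in each line, where 11.2% and 7.77% of all genes reached that size. The vehicle and 2DG arrays did not overlap for 35 of the 42 genes in MCF10A and 34 in MDA-MB-231, against 51.6% and 46.9% of all genes. Shares without overlap, here and for the lines below, were not counted for the brighter genes alone.

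Of the 42 genes, 11 rose in both lines, 12 fell in both and 6 moved in opposite directions. Over all genes these shares were 31.2% for the same direction and 8.22% for opposite ones. They were not counted for brighter genes alone, which are called more often. Those lower in both lines were MPI, DOLK, DOLPP1, DPM1, ALG1, ALG3, ALG6, ALG8, ALG9, ALG10, ALG14 and MAN1A2. Those higher in both were GMPPA, ALG2, ALG5, STT3A, STT3B, RPN1, DDOST, MAGT1, OSTC, MAN1A1 and MGAT4B. DPAGT1, UGGT1 and MGAT4A rose in MCF10A and fell in MDA-MB-231, and DHDDS, MGAT1 and MGAT5 did the reverse. DAD1 was the 1 gene called in neither line. These lists hold for the probe sets used. With the mean of all probe sets MAN1A2 rose in both lines and UGGT1 and MGAT4A rose in MDA-MB-231, a second ALG9 probe set rose in both lines, and a second DHDDS probe set fell in both. Across the 42 genes, the changes of the lines, which share no arrays, had a Pearson r of 0.618 and a Spearman rho of 0.595, and over all genes r was 0.54. Genes are not independent replicates, and the points of each line share their arrays.

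**Figure D1:**
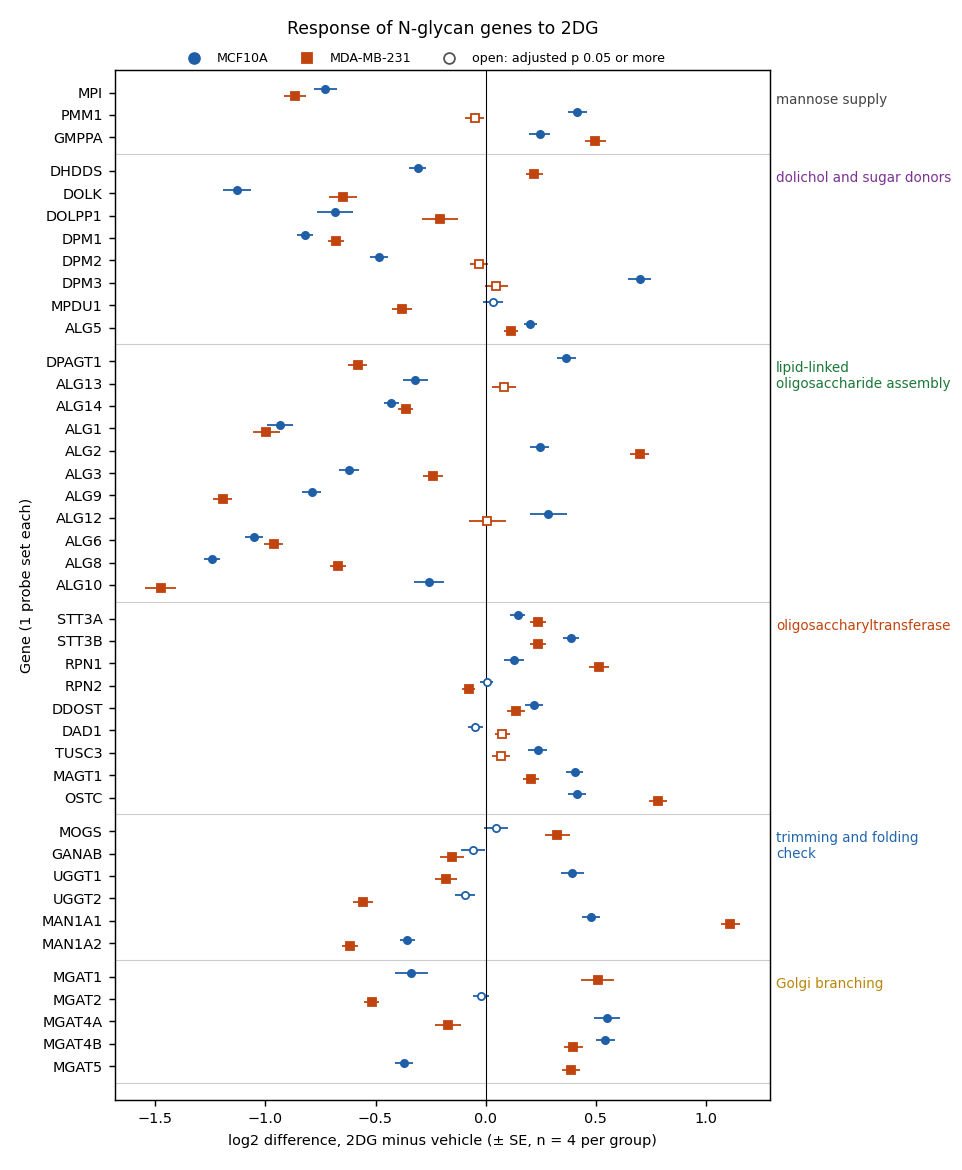
Change with 2DG (2DG minus vehicle, log2, ± SE, n = 4 arrays a group) for each of the 42 genes, circles for MCF10A and squares for MDA-MB-231, open where the adjusted p was 0.05 or more, grouped by step. Most assembly genes lie left of 0 in both lines, down to -1.48 for ALG10 in MDA-MB-231, and most transferase genes lie between 0 and 0.78.

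The promoters of these genes were searched for the sites through which ER stress reaches its target genes, since the classical stress genes rose beside them. All 8 stress markers were higher with 2DG in both lines, with a median change of 1.96 in MCF10A and 1.76 in MDA-MB-231. The ER chaperone HSPA5 rose by 0.81 and 1.39, and its co-chaperone DNAJB9 by 2.50 and 2.93. Their part in the changes of the glycan genes was not tested. RefSeq promoters of the build GRCh38.p14, from 250 bases before to 50 after a start, were held for 39 of the 46 genes. The stretches below run 5' to 3' on the strand of the gene. They show the pair of matches among the 39 genes (ALG12 and DHDDS), 3 genes that fell in both lines (ALG6, ALG8 and DOLK), 1 that rose in both (OSTC) and the stress gene HSPA5 as the model of a site. Capitals mark a matched motif. In ALG12 and HSPA5 the longest capital run is the ER stress response element (ERSE), a CCAAT and a CCACG separated by 9 bases. The capitals in DHDDS are the unfolded protein response element TGACGTGG read from the other strand, and those in DOLK are the E-box CACGTG.
ALG12, chr22:49918489-49918588, minus strand, bases -150 to -51: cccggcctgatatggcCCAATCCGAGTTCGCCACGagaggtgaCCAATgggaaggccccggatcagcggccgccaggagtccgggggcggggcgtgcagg
DHDDS, chr1:26432222-26432321, plus strand, bases -99 to 1: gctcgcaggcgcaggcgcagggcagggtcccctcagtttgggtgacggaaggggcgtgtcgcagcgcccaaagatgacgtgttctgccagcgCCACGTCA
ALG6, chr1:63367527-63367626, plus strand, bases -100 to -1: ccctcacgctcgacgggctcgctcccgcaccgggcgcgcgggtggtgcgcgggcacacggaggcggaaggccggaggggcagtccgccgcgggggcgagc
ALG8, chr11:78139627-78139726, minus strand, bases -100 to -1: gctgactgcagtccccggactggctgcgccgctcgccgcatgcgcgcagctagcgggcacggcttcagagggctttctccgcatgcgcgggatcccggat
DOLK, chr9:128947604-128947703, minus strand, bases -100 to -1: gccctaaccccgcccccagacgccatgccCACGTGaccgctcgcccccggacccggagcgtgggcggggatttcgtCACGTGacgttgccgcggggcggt
OSTC, chr4:108650499-108650598, plus strand, bases -100 to -1: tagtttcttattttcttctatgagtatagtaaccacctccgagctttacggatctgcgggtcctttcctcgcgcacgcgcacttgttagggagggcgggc
HSPA5, chr9:125241344-125241443, minus strand, bases -100 to -1: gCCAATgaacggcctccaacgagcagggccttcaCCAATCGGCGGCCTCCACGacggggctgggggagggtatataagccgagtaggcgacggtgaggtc

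Searched on both strands of the full windows, ERSE matched 1 of the 39 genes (2.56%), ALG12 from base -134, against 0.0916% of the 27305 genes with a promoter in the table. TGACGTGG also matched 1, DHDDS from base -7, against 0.927%. The ERSE-II element, the amino acid response element TGATGNAAT and the cyclic AMP response element TGACGTCA matched none of the 39 and 0.0696%, 1.22% and 2.25% of all genes. Among the 8 stress markers, HSPA5 and XBP1 held ERSE, and HERPUD1 and SDF2L1 held ERSE-II. TGACGTGG, the amino acid response element and the cyclic AMP response element matched none of these 8 either. A pair of commoner motifs, searched after the values were seen, were the CCAAT box in 22 of the 39 genes (56.4%, against 39.7% of all) and CACGTG in 7 (17.9%, against 8.77%). The latter were ALG1, ALG3, DDOST, DHDDS, DOLK, GMPPA and SRD5A3, and each ERSE holds a CCAAT box by its make-up. A match describes these letters in this window and is no evidence of binding.

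ALG12, which adds a mannose to the growing chain, carries its ERSE in a stretch shared with a neighbour. The gene CRELD2 starts 196 bases away in the opposite direction in RefSeq, and was looked at for that reason after the values were seen. ALG12 read 7.01, 6.96, 6.98 and 7.06 on the MCF10A vehicle arrays and 7.39, 7.35, 7.15 and 7.25 on those with 2DG. In MDA-MB-231 its values were 6.95, 6.83, 6.93 and 6.68 on vehicle and 6.62, 6.97, 6.79 and 7.04 on 2DG. The groups were apart in MCF10A and overlapped in MDA-MB-231. ALG12 rose by 0.28 ± 0.084 in MCF10A (adjusted p = 0.00873) and changed by 0.01 ± 0.084 in MDA-MB-231 (adjusted p = 0.955), a difference that did not pass the test (-0.28 ± 0.118, adjusted p = 0.0722). It passed without MCF10A 2DG replicate C, MDA-MB-231 vehicle replicate D or MDA-MB-231 2DG replicate B or D, and over all arrays left out it ran from -0.34 to -0.20. CRELD2 rose by 0.60 ± 0.044 and 1.04 ± 0.044 in the same arrays.

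The mannose supply was measured for 3 of its 5 genes, which went in different directions. MPI interconverts fructose and mannose phosphates and is the way by which glucose carbon enters the pathway. MPI read 6.99, 7.05, 7.10 and 6.91 on MCF10A vehicle arrays and 6.32, 6.21, 6.34 and 6.27 with 2DG. In MDA-MB-231 the arrays gave 7.91, 7.91, 7.81 and 7.76 on vehicle and 6.91, 6.98, 6.98 and 7.06 with 2DG. Each 2DG array lay below each vehicle array of its line, and with this probe set MDA-MB-231 under 2DG came down to the MCF10A vehicle level. MPI fell by 0.73 ± 0.051 in MCF10A (adjusted p = 1.93e-09) and by 0.87 ± 0.051 in MDA-MB-231 (adjusted p = 2.84e-10), and the difference between these falls did not pass the test (adjusted p = 0.141). A second, dimmer MPI probe set fell by 1.13 in MCF10A and 0.53 in MDA-MB-231. In the limma fit of all probe sets its difference was called (0.595, adjusted p = 0.00294), so the comparison of the falls depends on the probe set. The comparison of levels does too. This second probe set averaged 6.955 on MDA-MB-231 vehicle and 6.422 with 2DG, against 7.13 on MCF10A vehicle.

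PMM1, a phosphomannomutase whose close relative PMM2 was not analysed here, read 8.58, 8.69, 8.58 and 8.67 on MCF10A vehicle and 9.07, 9.04, 9.09 and 8.98 with 2DG. PMM1 rose by 0.42 ± 0.042 there (adjusted p = 2.37e-07), with no overlap of the arrays. The MDA-MB-231 values, 8.25, 8.31, 8.37 and 8.34 on vehicle and 8.28, 8.21, 8.24 and 8.34 with 2DG, overlapped and were not called (-0.05 ± 0.042, adjusted p = 0.367). Between the lines the PMM1 responses differed by -0.47 ± 0.060 (adjusted p = 6.1e-06). GMPPA, a regulatory partner of the enzyme that makes GDP-mannose, rose in both lines. Its vehicle arrays read 7.59, 7.77, 7.66 and 7.64 in MDA-MB-231, and those with 2DG read 8.09, 8.18, 8.12 and 8.26. The rise of GMPPA was 0.50 ± 0.048 in that line (adjusted p = 1.47e-07) and 0.25 ± 0.048 in MCF10A (adjusted p = 0.000332). The probe set of GMPPA can bind more than 1 transcript, as its identifier records.

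Of the 8 measured genes for dolichol and its charged sugars, 5 fell and 2 rose in MCF10A (median change -0.40), and 4 fell and 2 rose in MDA-MB-231 (median -0.12). DOLK, the kinase that makes dolichol phosphate, gave 8.62, 8.66, 8.73 and 8.57 on MCF10A vehicle and 7.62, 7.54, 7.52 and 7.38 with 2DG. MDA-MB-231 gave 8.43, 8.55, 8.30 and 8.48 on vehicle and 7.70, 7.82, 7.74 and 7.91 with 2DG for the same gene. In both lines the groups stood well apart. DOLK fell by 1.13 ± 0.064 in MCF10A, a 2.19-fold fall (adjusted p = 1.18e-10), and by 0.65 ± 0.064 in MDA-MB-231 (adjusted p = 1.74e-07). The fall was smaller in MDA-MB-231 by 0.48 ± 0.090 (adjusted p = 0.000272).

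Dol-P-mannose synthase, which charges dolichol phosphate with mannose, has a catalytic subunit, DPM1, and the anchoring subunits DPM2 and DPM3. DPM1 read 12.54, 12.52, 12.54 and 12.58 on MCF10A vehicle and 11.70, 11.70, 11.73 and 11.77 with 2DG. Those of MDA-MB-231 were 12.66, 12.72, 12.70 and 12.79 on vehicle and 12.09, 12.02, 12.04 and 12 with 2DG. DPM1 thus fell in both lines with tight replicates, by 0.82 ± 0.036 (adjusted p = 4.4e-12) and 0.68 ± 0.036 (adjusted p = 7.01e-11). Its anchors went separate ways in MCF10A, where DPM2 fell by 0.48 ± 0.041 (adjusted p = 2.33e-08) and DPM3 rose by 0.70 ± 0.051 (adjusted p = 3.81e-09). Neither anchor was called in MDA-MB-231, with changes of -0.03 for DPM2 and 0.05 for DPM3.

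Among the other genes of this step, DOLPP1, which recycles dolichol pyrophosphate after transfer, fell by 0.69 ± 0.082 in MCF10A. In MDA-MB-231 its change of -0.21 ± 0.082 was called at an adjusted p of 0.0463. That call was lost when any 1 of 7 of the 8 MDA-MB-231 arrays was left out, vehicle replicate D being the exception, with changes from -0.24 to -0.15. ALG5, which charges dolichol phosphate with glucose, rose slightly in both lines, by 0.20 and 0.12. MPDU1, needed for the use of both charged lipids, was called in MDA-MB-231 alone (-0.38 ± 0.047, and 0.03 ± 0.047 in MCF10A), and the difference was -0.41 ± 0.067 (adjusted p = 6.78e-05). DHDDS, a subunit of the enzyme that makes the dolichol chain and the gene whose start carries TGACGTGG, fell by 0.31 ± 0.039 in MCF10A and rose by 0.22 ± 0.039 in MDA-MB-231 (adjusted p of the difference 4.78e-07). A second DHDDS probe set fell in both lines, by 0.43 and 0.37.

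Most genes for assembly of the chain fell in both lines. Of 11 measured genes, 8 fell and 3 rose in MCF10A (median change -0.43), and 8 fell and 1 rose in MDA-MB-231 (median -0.58). Averaged over the 11 genes as the deviation from each gene's mean, the vehicle arrays lay between 0.23 and 0.29 in MCF10A and between 0.19 and 0.24 in MDA-MB-231. The 2DG arrays lay between -0.21 and -0.16 and between -0.32 and -0.27. Falls outnumbered rises under each other probe set rule, array scaling and covariate tried. With the mean of all probe sets of a gene the counts were 7 down and 4 up in MCF10A and 7 down and 2 up in MDA-MB-231, and the median in MCF10A shrank to -0.19, less than the -0.43 of the dolichol step by that rule. Without shared probe sets, 6 of 9 assembly genes fell and 3 rose in MCF10A (median -0.32), and 5 fell and 2 rose in MDA-MB-231 (median -0.36).

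**Figure D2:**
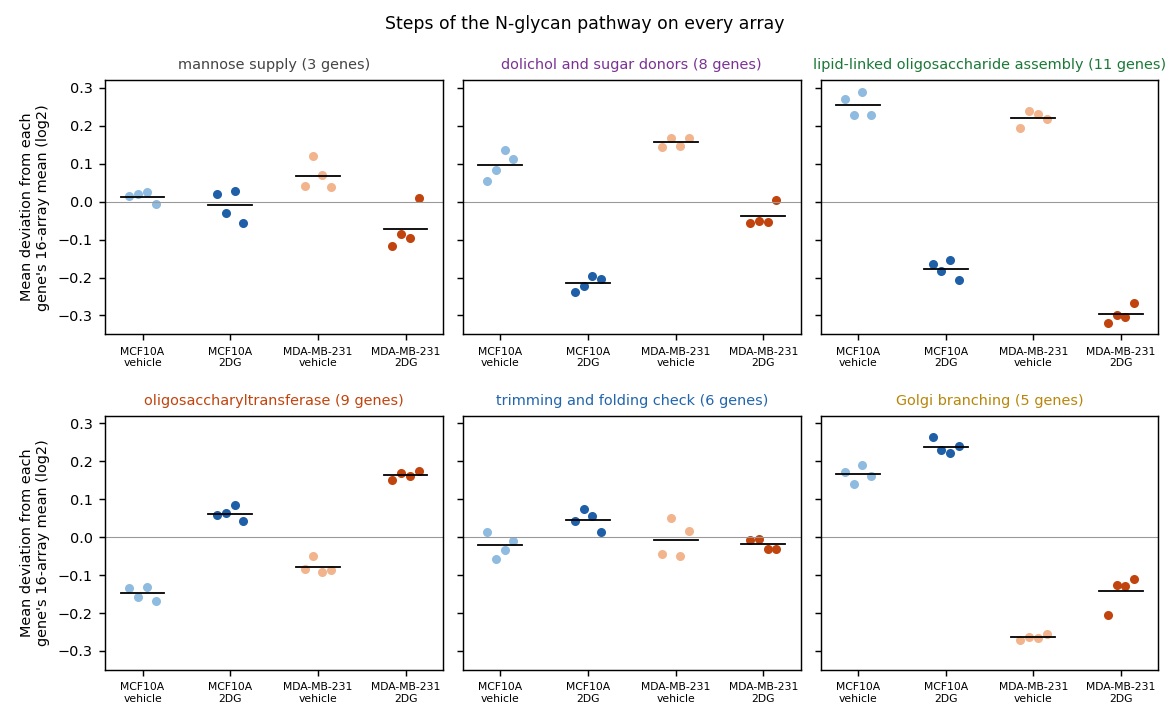
Mean over the measured genes of each step of the deviation from the gene's 16-array mean (log2), 1 point per array and a bar for the mean of 4 arrays, for the 4 groups. The 2DG arrays lie below the vehicle arrays in both lines for the dolichol and assembly steps and above them for the oligosaccharyltransferase, while those of the trimming step overlap in MDA-MB-231.

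The last sugars of the chain are 3 glucoses, added by ALG6, ALG8 and ALG10 in that order. ALG8 read 11.02, 11.05, 11.07 and 11.06 on MCF10A vehicle arrays and 9.80, 9.79, 9.88 and 9.76 with 2DG. Its MDA-MB-231 values were 11.61, 11.59, 11.64 and 11.63 on vehicle and 10.87, 10.93, 11.01 and 10.98 with 2DG. The groups of each line were separated by far more than their spread. ALG8 fell by 1.24 ± 0.037 in MCF10A, a 2.37-fold fall (adjusted p = 4.11e-14), and by 0.67 ± 0.037 in MDA-MB-231 (adjusted p = 1.43e-10), which is less by 0.57 ± 0.053 (adjusted p = 1.28e-07).

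ALG6, which adds the innermost of these glucoses, read 10.22, 10.21, 10.29 and 10.28 on MCF10A vehicle and 9.12, 9.25, 9.28 and 9.14 with 2DG. The MDA-MB-231 arrays gave ALG6 values of 10.23, 10.29, 10.30 and 10.29 on vehicle and 9.36, 9.28, 9.28 and 9.34 with 2DG. Both lines started and ended close together. ALG6 fell by 1.05 ± 0.042 in MCF10A (2.07-fold, adjusted p = 1.25e-12) and by 0.96 ± 0.042 in MDA-MB-231 (1.95-fold, adjusted p = 6.22e-12). A difference between the lines did not pass the test (0.09 ± 0.059, adjusted p = 0.246).

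ALG10 adds the outermost glucose, the one the transferase recognises. On MCF10A vehicle arrays ALG10 read 7.35, 7.22, 7.38 and 7.20, and with 2DG 7.16, 6.88, 7.08 and 7.0. MDA-MB-231 vehicle arrays gave 7.27, 7.20, 7.34 and 7.38, and 2DG arrays 5.89, 5.75, 5.95 and 5.70. The lines had the same range on vehicle, and under 2DG the MDA-MB-231 arrays lay far below all others. ALG10 fell by 0.26 ± 0.070 in MCF10A (adjusted p = 0.00468) and by 1.48 ± 0.070 in MDA-MB-231, a 2.78-fold fall (adjusted p = 1.89e-11). With the probe sets used this was the largest difference of response among the 42 genes, -1.22 ± 0.099 (adjusted p = 2.82e-08). A second, dimmer ALG10 probe set fell by 1.03 in MDA-MB-231 and was not called in MCF10A (-0.12). ALG10B, a near copy of ALG10, is named only on probe sets with several genes, and how far its transcript reaches the ALG10 probes is not known.

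The chain is started by DPAGT1, the target of tunicamycin, which puts the first N-acetylglucosamine phosphate on dolichol. DPAGT1 read 9.75, 9.67, 9.76 and 9.59 on MCF10A vehicle and 10.13, 10.03, 10.03 and 10.04 with 2DG. The MDA-MB-231 arrays gave 10.26, 10.22, 10.17 and 10.19 on vehicle and 9.61, 9.58, 9.65 and 9.68 with 2DG. The order of the groups turned over between the lines, with no overlap in either. DPAGT1 rose by 0.37 ± 0.043 in MCF10A (adjusted p = 1.38e-06) and fell by 0.58 ± 0.043 in MDA-MB-231 (adjusted p = 5.47e-09), and the responses differed by -0.95 ± 0.061 (adjusted p = 1.88e-09). DPAGT1 has only a probe set whose identifier marks probes shared between transcripts.

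The next steps on the cytosolic face did not all go one way. ALG14, which anchors the enzyme of the second N-acetylglucosamine, fell by 0.43 ± 0.034 and 0.36 ± 0.034 in MCF10A and MDA-MB-231. ALG1, which adds the first mannose, fell by 0.93 ± 0.060 (1.91-fold, adjusted p = 6.06e-10) and by 1.00 ± 0.060 (1.99-fold, adjusted p = 3.62e-10). ALG2, which adds the next mannoses, rose by 0.25 ± 0.042 in MCF10A and 0.70 ± 0.042 in MDA-MB-231 (adjusted p of the difference 8.21e-06). ALG13, the catalytic partner of ALG14, was called lower in MCF10A only (-0.32 ± 0.056, and 0.08 ± 0.056 in MDA-MB-231). Its 5 probe sets disagreed, with 2 higher in both lines, by 1.28 and 1.15 in MCF10A and by 0.69 and 0.64 in MDA-MB-231, and another lower by 0.79 in MCF10A.

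Within the ER lumen, ALG3, ALG9 and ALG12 add the further mannoses. ALG3 fell by 0.62 ± 0.046 in MCF10A and 0.24 ± 0.046 in MDA-MB-231, smaller in the latter by 0.38 (adjusted p = 0.000129). ALG9 read 9.38, 9.34, 9.40 and 9.29 on MCF10A vehicle and 8.56, 8.58, 8.64 and 8.47 with 2DG, and 9.34, 9.39, 9.31 and 9.30 on MDA-MB-231 vehicle and 8.14, 8.06, 8.17 and 8.20 with 2DG. The fall of ALG9 was 0.79 ± 0.044 in MCF10A (adjusted p = 9.28e-11) and 1.19 ± 0.044 in MDA-MB-231, a 2.29-fold fall (adjusted p = 8.9e-13). These values rest on a probe set whose probes are shared between transcripts. A second one, with a mean of 8.79 against 8.85, rose by 0.46 in MCF10A and 0.34 in MDA-MB-231, so the direction of ALG9 depends on the probe set.

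**Figure D3:**
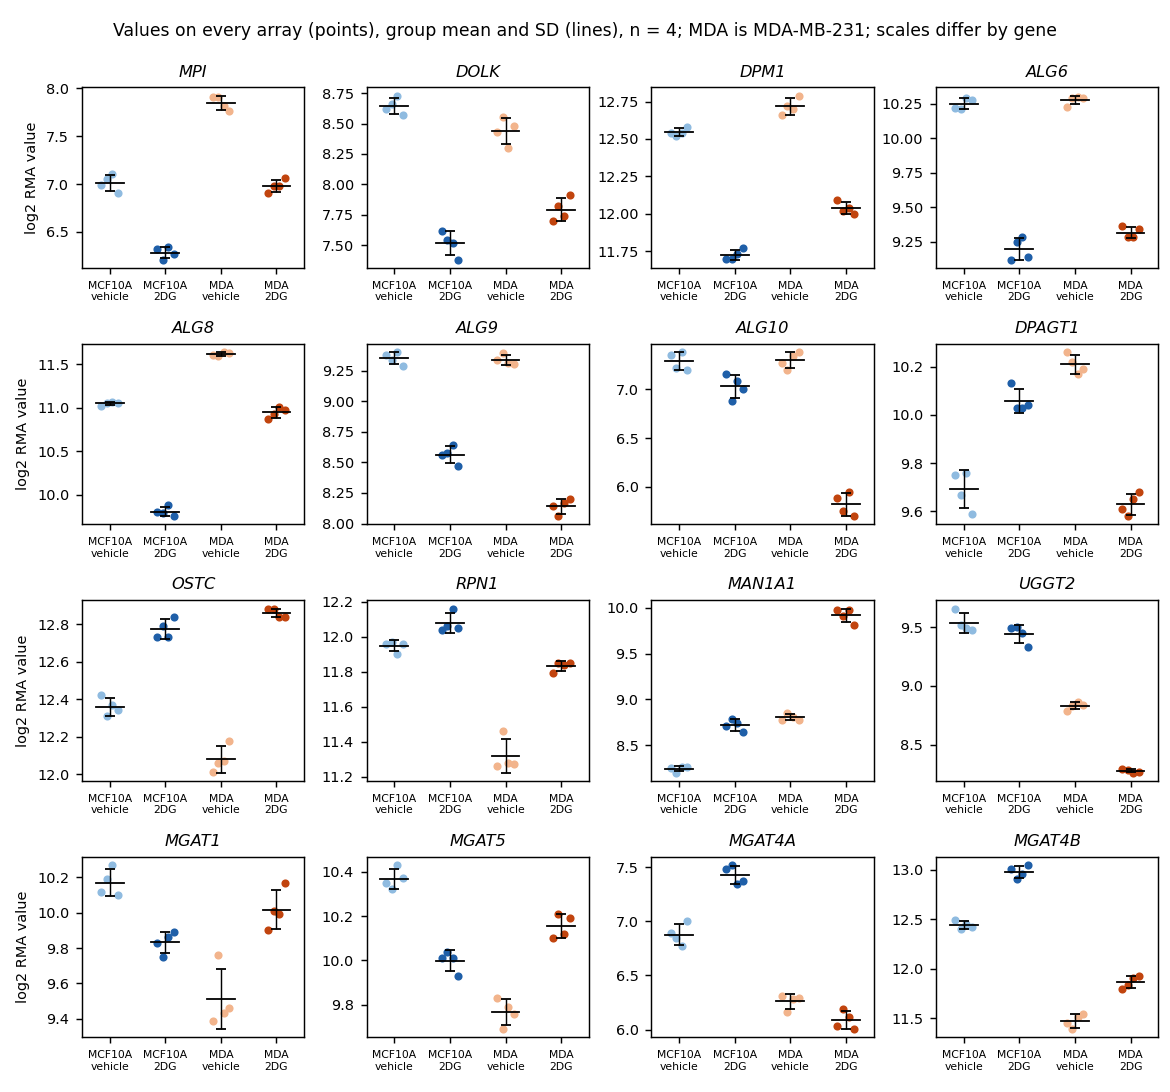
Log2 RMA value of 16 of the genes on every array, with group means and standard deviations (n = 4), each panel on its own scale. ALG10 in MDA-MB-231 with 2DG stands below the other 3 groups, DPAGT1 turns over between the lines, and RPN1 on MDA-MB-231 vehicle has 1 array at 11.46 above the others.

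The 9 subunits of the oligosaccharyltransferase moved the other way. In MCF10A 7 rose and none fell, with a median change of 0.22, and 2 were not called. In MDA-MB-231 6 rose and RPN2 fell slightly, with a median of 0.21. Leaving out MDA-MB-231 vehicle replicate B, the array with the high actin ratio, made it 8 higher and 1 lower with a median of 0.20. Centring the arrays on their medians gave 6 higher and 1 lower in MCF10A and 6 higher and none lower in MDA-MB-231. With the actin ratio as a covariate both lines had 6 higher and none lower, and with the mean of all probe sets the counts were 6 and 0 in MCF10A and 5 and 1 in MDA-MB-231. Without shared probe sets 7 subunits were left, with 5 higher and none lower in MCF10A and 4 higher and 1 lower in MDA-MB-231. The sizes were small next to those of the assembly genes. Their median size was 0.22 in MCF10A and 0.205 in MDA-MB-231, near the 0.20 and 0.17 over all genes.

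OSTC, a subunit that links the complex to the protein-conducting channel, changed most. It read 12.42, 12.31, 12.37 and 12.34 on MCF10A vehicle and 12.73, 12.79, 12.73 and 12.84 with 2DG. MDA-MB-231 started lower, at 12.01, 12.06, 12.07 and 12.18, and reached 12.88, 12.88, 12.84 and 12.84 with 2DG. OSTC rose by 0.41 ± 0.042 in MCF10A (adjusted p = 1.94e-07) and by 0.78 ± 0.042 in MDA-MB-231, a 1.72-fold rise (adjusted p = 8.16e-11). The rise was larger in MDA-MB-231 by 0.37 ± 0.059 (adjusted p = 5.88e-05).

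RPN1, a ribophorin that guides substrates to the complex, read 11.26, 11.46, 11.28 and 11.27 on MDA-MB-231 vehicle and 11.79, 11.85, 11.84 and 11.85 with 2DG. It rose by 0.52 ± 0.045 there (adjusted p = 4.39e-08). In MCF10A, RPN1 read 11.96, 11.97, 11.90 and 11.96 on vehicle and 12.04, 12.06, 12.16 and 12.05 with 2DG, a rise of 0.13 ± 0.045 (adjusted p = 0.0228). The latter call was lost without MCF10A vehicle replicate C or 2DG replicate C, where the change ranged down to 0.10 and the adjusted p up to 0.0823. RPN2, the second ribophorin, was not called in MCF10A (0.01 ± 0.030) and fell by 0.08 ± 0.030 in MDA-MB-231. The RPN2 call was lost without vehicle replicate A or C or 2DG replicate A or C of MDA-MB-231 (change -0.09 to -0.07 over all arrays left out, adjusted p up to 0.108).

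The catalytic subunit comes in alternative forms, STT3A, which acts as proteins enter the ER, and STT3B, which also acts afterwards. STT3A read 11.84, 11.80, 11.83 and 11.81 on MCF10A vehicle and 11.90, 11.96, 12.01 and 11.99 with 2DG, and rose by 0.15 ± 0.035 (adjusted p = 0.00191). STT3B read 12.18, 12.17, 12.22 and 12.15 on MCF10A vehicle and 12.61, 12.55, 12.56 and 12.54 with 2DG, and rose by 0.39 ± 0.036 (adjusted p = 7.87e-08). Both forms had separate groups in this line. In MDA-MB-231, STT3A went from 12.03, 12.07, 12.06 and 12.09 to 12.23, 12.31, 12.32 and 12.34, and STT3B from 12.66, 12.66, 12.53 and 12.64 to 12.89, 12.87, 12.85 and 12.83. Each rose by 0.24 in MDA-MB-231, with SEs of 0.035 and 0.036 (adjusted p = 1.88e-05 and 2.65e-05).

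MAGT1 and TUSC3 are alternative oxidoreductase subunits of the STT3B form. MAGT1 read 11.85, 11.80, 11.88 and 11.77 on MCF10A vehicle and 12.21, 12.24, 12.24 and 12.22 with 2DG, a rise of 0.40 ± 0.038 (adjusted p = 8.14e-08), and of 0.21 without shared probe sets. In MDA-MB-231 it read 12.31, 12.32, 12.35 and 12.36 on vehicle and 12.64, 12.51, 12.51 and 12.50 with 2DG, a rise of 0.21 ± 0.038 (adjusted p = 0.000194). This second rise was not called with the mean of the MAGT1 probe sets (0.08, adjusted p = 0.437) or without shared ones (0.05, adjusted p = 0.657). TUSC3 rose by 0.24 ± 0.041 in MCF10A (adjusted p = 0.000109), from 11.25, 11.31, 11.32 and 11.27 to 11.54, 11.52, 11.58 and 11.45. In MDA-MB-231 it read 10.98, 11.05, 10.94 and 10.87 on vehicle and 11.01, 11.01, 11.07 and 11.03 with 2DG, which overlapped and were not called (0.07 ± 0.041, adjusted p = 0.182).

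TUSC3 had no settled direction. Its call in MDA-MB-231 appeared without vehicle replicate B (0.10, adjusted p = 0.0485), and 2 of its other probe sets fell there by 1.02 and 1.07, while another rose by 0.12. With the mean of its probe sets or without shared ones the MCF10A change was -0.02 and -0.16, and neither was called. Of the remaining subunits, DDOST rose by 0.22 ± 0.041 and 0.14 ± 0.041 in MCF10A and MDA-MB-231. DAD1, the small defender against cell death, changed by -0.05 ± 0.033 and 0.08 ± 0.033 and was not called. Without MDA-MB-231 vehicle replicate B, DAD1 was called in that line too (0.09, adjusted p = 0.0358).

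Trimming and the folding check gave 2 rises and 1 fall among 6 genes in MCF10A (median change -0.01) and 2 rises and 4 falls in MDA-MB-231 (median -0.17). These counts depended on the probe sets: their means gave 3 rises and 1 fall with a median of 0.19 in MCF10A, and 4 rises and 1 fall with a median of 0.25 in MDA-MB-231. MAN1A1, a Golgi mannosidase, rose with both of its probe sets, though by different amounts in MDA-MB-231. It read 8.25, 8.20, 8.26 and 8.26 on MCF10A vehicle and 8.71, 8.79, 8.74 and 8.64 with 2DG, and 8.78, 8.85, 8.81 and 8.78 on MDA-MB-231 vehicle and 9.97, 9.91, 9.97 and 9.81 with 2DG. The MDA-MB-231 arrays with 2DG lay above all others. MAN1A1 rose by 0.48 ± 0.043 in MCF10A (adjusted p = 4.23e-08) and by 1.11 ± 0.043 in MDA-MB-231, a 2.16-fold rise (adjusted p = 1.53e-12). No other of the 42 genes rose by 2-fold with the probe sets used. Other probe sets of ALG13, MAN1A2, UGGT1 and MGAT4A did so in MCF10A. With the probe set used, the MAN1A1 rise was larger in MDA-MB-231 by 0.63 ± 0.060 (adjusted p = 1.85e-07), and its other probe set rose by 0.47 and 2.22, a difference of 1.75. With the mean of both the difference was 1.19.

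MAN1A2, the related mannosidase, depended on the probe set read. The one used read 10.58, 10.54, 10.60 and 10.65 on MCF10A vehicle and 10.22, 10.25, 10.24 and 10.24 with 2DG, and 10.00, 9.90, 9.92 and 9.97 on MDA-MB-231 vehicle and 9.27, 9.33, 9.37 and 9.36 with 2DG. It fell by 0.36 ± 0.036 (adjusted p = 2.13e-07) and 0.62 ± 0.036 (adjusted p = 2.68e-10). Of its 5 other probe sets, 4 rose in both lines, by 1.64, 0.67, 1.09 and 0.34 in MCF10A and by 1.77, 0.90, 0.70 and 0.28 in MDA-MB-231, and the remaining one was called in neither. All of these were dimmer than the one used, and no direction of MAN1A2 holds over its probe sets.

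UGGT1 and UGGT2 are the folding sensors that put glucose back. UGGT1 read 10.03, 9.91, 9.94 and 10.03 on MCF10A vehicle and 10.37, 10.47, 10.33 and 10.31 with 2DG, a rise of 0.39 ± 0.051 (adjusted p = 4.27e-06). In MDA-MB-231 it fell by 0.18 ± 0.051 (adjusted p = 0.00706), from 9.76, 9.94, 9.81 and 9.81 to 9.71, 9.71, 9.60 and 9.58. The fall in MDA-MB-231 was a rise of 0.17 with the mean of the UGGT1 probe sets, and 1 of those rose by 1.20 and 0.87 in MCF10A and MDA-MB-231. UGGT2 was not called in MCF10A (-0.10 ± 0.045, adjusted p = 0.0918), with vehicle arrays at 9.66, 9.52, 9.49 and 9.48 and 2DG arrays at 9.49, 9.50, 9.45 and 9.33. In MDA-MB-231 it went from 8.79, 8.83, 8.86 and 8.84 to 8.29, 8.28, 8.26 and 8.27, a fall of 0.56 ± 0.045 (adjusted p = 1.76e-08), and the responses differed by -0.46 ± 0.064 (adjusted p = 1.43e-05). With 2 other UGGT2 probe sets that difference was positive, 1.005 and 0.52. With arrays centred on their medians the MCF10A change of UGGT2 was called (-0.13, adjusted p = 0.0314), and so was the mean of its probe sets (-0.33, adjusted p = 6.02e-05), for which the MDA-MB-231 fall was not (-0.07, adjusted p = 0.307).

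The glucosidases that trim the outer and inner glucoses changed little. MOGS, the first, was not called in MCF10A (0.05 ± 0.055) and rose by 0.33 ± 0.055 in MDA-MB-231 (adjusted p = 8.35e-05). GANAB, the catalytic subunit of the second, was not called in MCF10A (-0.06 ± 0.055) and was lower by 0.15 ± 0.055 in MDA-MB-231 (adjusted p = 0.0293). The GANAB call was lost without MDA-MB-231 vehicle replicate B or D or 2DG replicate B or C, and over the arrays left out the change ran from -0.19 to -0.12.

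**Figure D4:**
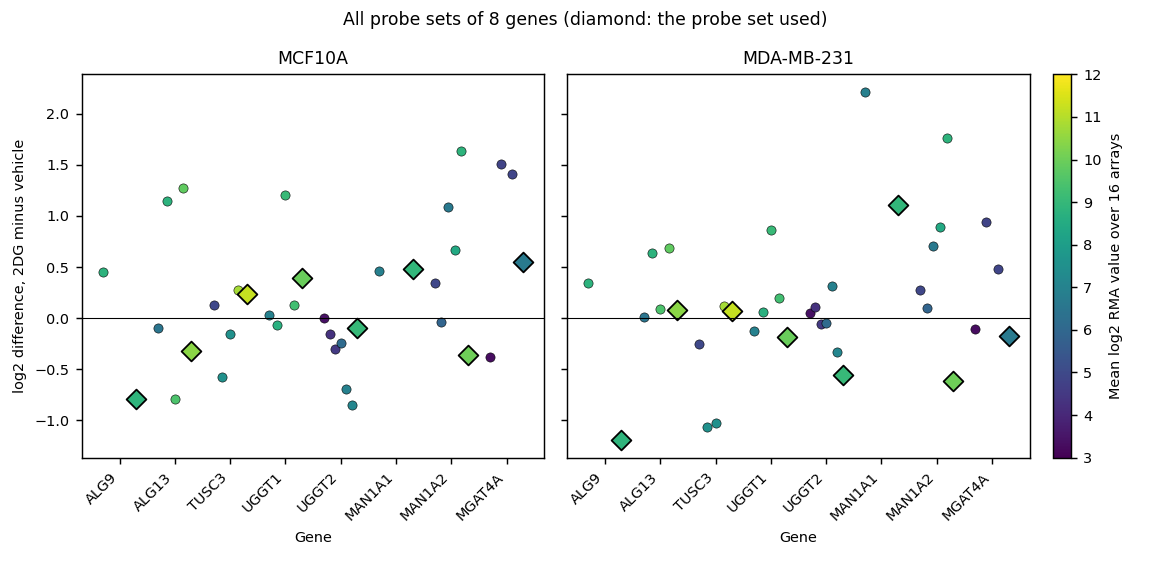
Change with 2DG (log2, 2DG minus vehicle) of every probe set that names only the gene, for 8 genes in MCF10A (left) and MDA-MB-231 (right), coloured by mean log2 value over 16 arrays, with the probe set used drawn as a diamond. The MAN1A2 probe sets run from -0.36 to 1.64 in MCF10A and from -0.62 to 1.77 in MDA-MB-231, and MAN1A1 is above 0 throughout.

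Probe sets were compared for the 22 genes that had more than 1. In MCF10A, 5 of them had another probe set called in the opposite direction (ALG9, ALG13, MAN1A2, MGAT4A and TUSC3), and in MDA-MB-231 there were 7 (ALG9, DHDDS, MAN1A2, MGAT4A, MPDU1, UGGT1 and UGGT2). For the lines compared there were 3 on vehicle (MAN1A2, TUSC3 and UGGT2) and 3 under 2DG (ALG9, MAN1A2 and UGGT2). The falls of MPI, DOLK and DPM1 and the rises of OSTC, MAN1A1 and MGAT4B kept direction and call in both lines under each of the 16 alternatives run. So did the falls of ALG6 and ALG8 in MCF10A and of ALG10 in MDA-MB-231, for which the other line was not run. DOLK, DPM1, OSTC, ALG6 and ALG8 have only 1 probe set each, so the alternatives that change the probe set could not alter their values.

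Genes for branching in the Golgi went in mixed directions. Of 5 genes, 2 rose and 2 fell in MCF10A (median change -0.02), and 3 rose and 2 fell in MDA-MB-231 (median 0.39). Without shared probe sets 3 genes were left, of which 2 rose and 1 fell in each line, and the MCF10A median became 0.54. With the mean of all probe sets 2 rose and 1 fell in MCF10A (median -0.10), and 4 rose and 1 fell in MDA-MB-231 (median 0.29). MGAT1, which starts the conversion to complex glycans, read 10.12, 10.19, 10.27 and 10.10 on MCF10A vehicle and 9.83, 9.75, 9.86 and 9.89 with 2DG. In MDA-MB-231 the values were 9.39, 9.76, 9.43 and 9.46 on vehicle and 9.90, 10.01, 9.99 and 10.17 with 2DG. The groups did not overlap in either line and lay in opposite order. MGAT1 fell by 0.34 ± 0.075 in MCF10A (adjusted p = 0.00103) and rose by 0.51 ± 0.075 in MDA-MB-231 (adjusted p = 2.12e-05), a difference of 0.85 ± 0.107 (adjusted p = 4.76e-06) and the largest in this direction among the 42 genes with the probe sets used. The MDA-MB-231 rise of MGAT1 was 0.34 with the actin ratio as a covariate.

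MGAT5 makes the branch linked to invasive growth of carcinoma cells. It read 10.35, 10.32, 10.43 and 10.37 on MCF10A vehicle and 10.01, 10.04, 10.01 and 9.93 with 2DG, and 9.83, 9.69, 9.79 and 9.76 on MDA-MB-231 vehicle and 10.10, 10.21, 10.12 and 10.19 with 2DG. MGAT5 thus fell by 0.37 ± 0.042 in MCF10A (adjusted p = 7.38e-07) and rose by 0.39 ± 0.042 in MDA-MB-231 (adjusted p = 4.97e-07). The responses differed by 0.76 ± 0.059 (adjusted p = 1.65e-08), and by 0.35 with the mean of the MGAT5 probe sets. MGAT2, which starts the second branch, read 12.15, 12.17, 12.14 and 12.16 on MDA-MB-231 vehicle and 11.62, 11.60, 11.70 and 11.63 with 2DG, a fall of 0.52 ± 0.035 (adjusted p = 1.75e-09). In MCF10A, MGAT2 read 11.49, 11.42, 11.51 and 11.39 on vehicle and 11.46, 11.41, 11.42 and 11.43 with 2DG and was not called (-0.02 ± 0.035, adjusted p = 0.632).

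The related enzymes MGAT4A and MGAT4B make a further branch. MGAT4B read 12.49, 12.40, 12.45 and 12.42 on MCF10A vehicle and 13.01, 12.91, 12.96 and 13.05 with 2DG, and 11.45, 11.39, 11.51 and 11.54 on MDA-MB-231 vehicle and 11.80, 11.84, 11.91 and 11.93 with 2DG. It rose by 0.54 ± 0.045 (adjusted p = 1.5e-08) and 0.40 ± 0.045 (adjusted p = 8.4e-07). MGAT4A rose by 0.55 ± 0.059 in MCF10A (adjusted p = 4.04e-07), from 6.89, 6.85, 6.77 and 7.0 to 7.48, 7.52, 7.34 and 7.37. In MDA-MB-231 it read 6.31, 6.16, 6.28 and 6.29 on vehicle and 6.03, 6.19, 6.12 and 6.01 with 2DG, with overlap, and the fall of 0.17 ± 0.059 was called at an adjusted p of 0.0215. This call was lost without vehicle replicate A or D or 2DG replicate A or D (-0.16 to -0.15, adjusted p up to 0.0681) and with the actin ratio as a covariate (-0.10), and 2 dimmer probe sets rose by 0.95 and 0.49 there.

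On vehicle the lines already differed in most of these genes. MDA-MB-231 was higher than MCF10A for 17 of the 42 and lower for 17 (81%), where 56% of all genes were called, 29.2% higher and 26.8% lower, and 78.3% of those at least as bright. The vehicle arrays of the lines did not overlap for 35 genes, against 52.7% of all genes. MPI was higher in MDA-MB-231 by 0.84 ± 0.051 (adjusted p = 3.1e-10), though by 0.33 with the mean of its probe sets. Its second probe set was not called different between the lines on vehicle (-0.175, adjusted p = 0.175 in the limma fit of all probe sets). MGAT2 was higher by 0.70 ± 0.035 (adjusted p = 2.38e-11). GANAB read 10.89, 10.83, 10.89 and 10.79 in MCF10A and 11.55, 11.68, 11.48 and 11.70 in MDA-MB-231, higher by 0.75 ± 0.055 (adjusted p = 3.27e-09).

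In the other direction ALG14 read 10.81, 10.79, 10.81 and 10.79 on MCF10A vehicle and 9.61, 9.73, 9.70 and 9.68 on MDA-MB-231 vehicle. It was lower by 1.12 ± 0.034, a 2.17-fold difference (adjusted p = 4.36e-14). MGAT4B was lower by 0.97 ± 0.045 (adjusted p = 8.09e-12) and UGGT2 by 0.71 ± 0.045 (adjusted p = 5.98e-10), the latter by 0.18 with the mean of its probe sets. Among the 5 branching genes 4 were lower in MDA-MB-231 and MGAT2 alone was higher. The 8 called among the transferase subunits were 5 higher and 3 lower, the lower ones being RPN1 (-0.63), TUSC3 (-0.33) and OSTC (-0.28). Among these line differences, the calls of DOLPP1 (0.24) were lost without MCF10A vehicle replicate A or MDA-MB-231 vehicle replicate B (down to 0.19). That of UGGT1 (-0.15) was lost without MCF10A vehicle replicate A or D or MDA-MB-231 vehicle replicate A (-0.18 to -0.12 over all arrays left out).

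Under 2DG, 21 of the 42 genes were higher in MDA-MB-231 and 17 lower (90.5%), with 59.5% of all genes called (30.7% and 28.8% by direction) and 81.8% of those at least as bright. The arrays of the lines did not overlap for 37 genes, against 56.3% of all. ALG8 was 1.14 ± 0.037 and MAN1A1 1.20 ± 0.043 higher in MDA-MB-231, and ALG10 1.21, MGAT4A 1.34 and MGAT4B 1.11 lower on the log2 scale. UGGT2 had no settled direction under 2DG, being lower by 1.17 with the probe set used and higher by 1.24, 1.16 and 0.24 with 3 others. MGAT1 and MGAT5, lower in MDA-MB-231 on vehicle by 0.66 and 0.60, were higher by 0.19 ± 0.075 (adjusted p = 0.0451) and 0.16 ± 0.042 (adjusted p = 0.00343) under 2DG. The MGAT1 call was lost without MCF10A 2DG replicate A, B or C or MDA-MB-231 2DG replicate B, C or D, with differences of 0.13 to 0.22 over all arrays left out. The levels of OSTC, GMPPA, ALG3 and DDOST were not called different between the lines under 2DG with the probe sets used. A second DDOST probe set was called lower in MDA-MB-231 by 0.15. OSTC (0.09) was called without MCF10A 2DG replicate D, up to 0.11, and GMPPA (-0.11) without replicate D of either line on 2DG, down to -0.14. ALG6 was called higher by 0.12 and lost its call without replicate A or D of either line on 2DG (0.09 to 0.15 over all arrays left out). These comparisons use the same arrays as the responses to 2DG and are not separate evidence for them.

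**Figure D5:**
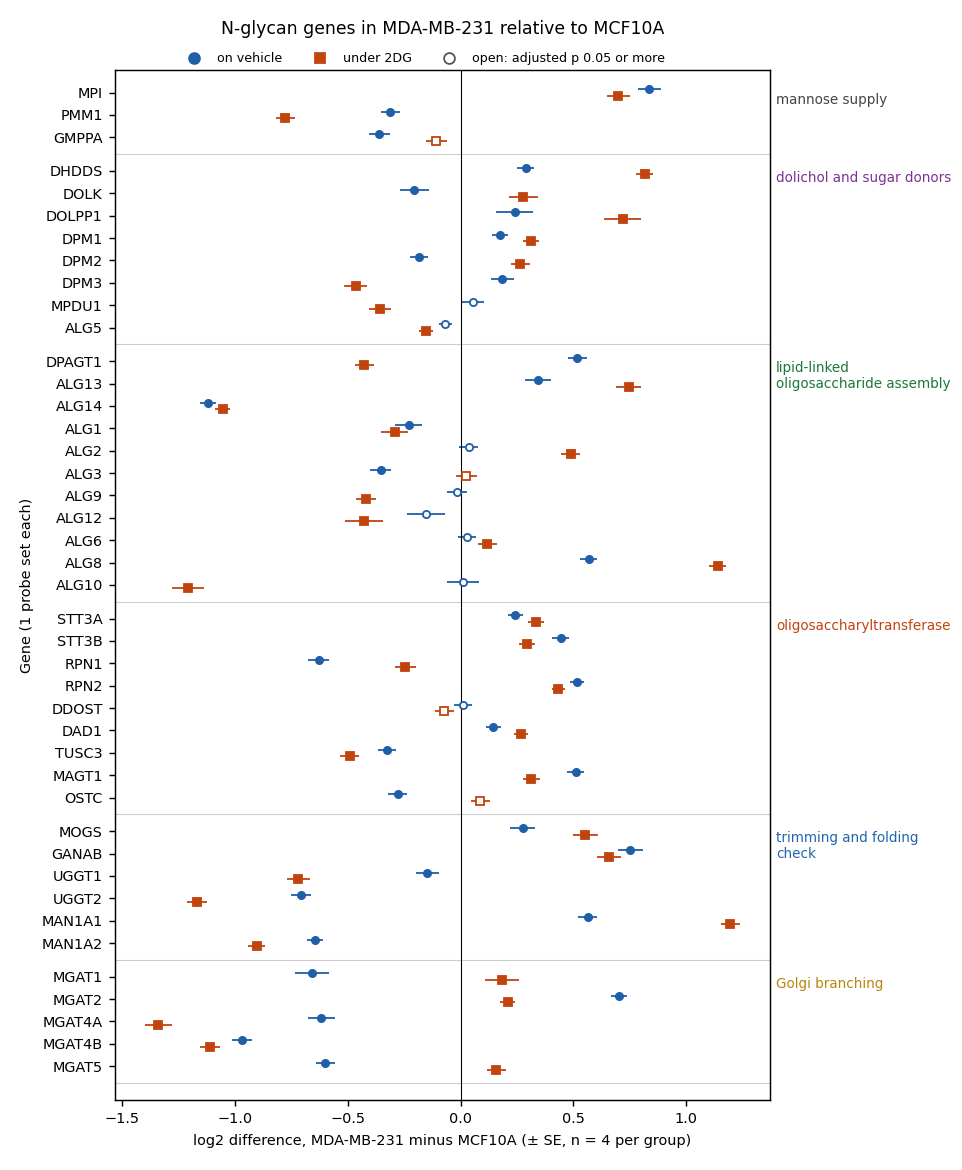
Difference between the lines (MDA-MB-231 minus MCF10A, log2, ± SE, n = 4 arrays a group) for the 42 genes on vehicle (circles) and under 2DG (squares), open where the adjusted p was 0.05 or more. ALG14 is lower in MDA-MB-231 by 1.12 on vehicle and 1.06 under 2DG, while ALG10 moves from 0.01 to -1.21 and MGAT1 from -0.66 to 0.19.

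The responses to 2DG themselves differed between the lines for 31 of the 42 genes (73.8%), 17 with the more positive change in MDA-MB-231 and 14 in MCF10A. Over all genes 45.8% were called, 22.3% and 23.6% by direction, and 66.7% of those at least as bright. Without the probe sets that can bind several transcripts, the 17 became 11 among the 33 genes left. By step the dolichol genes were called for 7 of 8, with 5 more positive in MDA-MB-231, and the assembly genes for 7 of 11. For some smaller differences the limma call was near its threshold, at adjusted p from 0.0257 to 0.0413, and did not hold with each array left out. The call of DAD1 (0.12) was lost when any 1 of 11 of the 16 arrays was left out. That of TUSC3 (-0.17) was lost with any 1 of 8, that of DPM1 (0.14) with any 1 of 6 and that of STT3B (-0.15) with any 1 of 3. The values over the arrays left out were 0.10 to 0.14 for DAD1, -0.20 to -0.14 for TUSC3, 0.12 to 0.16 for DPM1 and -0.18 to -0.13 for STT3B.

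Neighbouring genes of the pathway outside the 46 were measured for 34 of 38. In MCF10A 20 rose and 7 fell (79.4%, median change 0.18), where 54.2% of all genes were called. That share was close to the 77.4% called among the 11343 brighter genes used for comparison above. Of these neighbours only MAN1C1 was dimmer than that set. In MDA-MB-231 13 rose and 5 fell (median 0.09). This share of 52.9% was close to the 50.9% of all genes and below the 74.2% of the brighter ones. GFPT1, the first enzyme of the hexosamine route to UDP-N-acetylglucosamine, rose by 1.26 in MCF10A and 1.20 in MDA-MB-231. GNPNAT1 and UAP1, later enzymes of the same route, fell by 0.58 and 0.68 in MCF10A and were not called in MDA-MB-231 (0.03 and 0.04). The lectin chaperones calnexin (CANX) and calreticulin (CALR), which hold proteins with a single glucose, rose by 0.41 and 0.48 in MCF10A and by 0.45 and 1.33 in MDA-MB-231. Among the small transferase subunits KRTCAP2 rose by 0.23 in MCF10A and fell by 0.14 in MDA-MB-231, TMEM258 rose by 0.24 in MCF10A and was not called in MDA-MB-231 (0.08), and OST4 fell by 0.23 in MDA-MB-231 and was not called in MCF10A (0.08). Of 9 mannosidases and disposal genes, 6 rose in MCF10A and 5 in MDA-MB-231, EDEM1 by 0.14 and 0.80. The late Golgi gene B4GALT1 rose by 0.47 and 0.76.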

How the data were processed

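Per the labels' protocols, biotin-labelled RNA from 16 cultures, prepared with a 3' IVT kit, was hybridised to 1-colour Affymetrix arrays. The authors deposited a table of log2 probe set values made with RMA, per the submitters' processing notes (version, and whether all arrays were normalised together, not given in the sources used here). It held 54675 probe sets with values from 2.38 to 15.15 and array medians from 6.17 to 6.22, and 0 columns of other samples. GEO's platform annotation gave 41091 probe sets 1 gene, 1801 several and 11783 none. Of those with 1 gene, 41037 were found by Entrez number in the RefSeq table of GRCh38.p14. The number of arrays limits the precision.

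One model with 4 group means was fitted to these values by lmFit, contrasts.fit and eBayes (limma 3.58.1, R 4.3.3) over 16 arrays and 12 residual degrees of freedom, two-sided, with no filter, and the fit was tested on simulated data. The contrasts were the response to 2DG within a line, how it differed between lines, and the lines compared on vehicle and under 2DG. Genes given per array were the 2 largest non-overlapping called changes per step and line, the 3 largest differences of response and of line on vehicle each way, and paralog or partner pairs. ALG12 and CRELD2 were added after their values were seen. The genes and lists were chosen with earlier results of these data known. Alternatives were the mean of a gene's probe sets, no shared probe sets (_s_at, _x_at, _a_at), only genes of log2 6 or more, trend and robust eBayes, median centring, a replicate block, the actin ratio as a covariate, only the groups compared, and each array left out.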

Additional observations from a re-analysis of the deposited data

Results flagged for a closer look

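Single arrays stood far from the other 3 of their group in 13 of 168 gene and group combinations, where chance flags about 1 in 20. RPN1 did so in all 4 groups, on MCF10A vehicle replicate C (11.90, others at a mean of 11.96), MCF10A 2DG replicate C (12.16), MDA-MB-231 vehicle replicate B (11.46, others 11.27) and MDA-MB-231 2DG replicate A (11.79). In MDA-MB-231 with 2DG the others were DHDDS on replicate A (9.16), MAGT1 on replicate A (12.64) and ALG1 on replicate C (8.20). In MDA-MB-231 on vehicle they were ALG6 on replicate A (10.23) and STT3B on replicate C (12.53). In MCF10A with 2DG they were DPM2 on replicate B (8.82), ALG3 on replicate B (7.95) and DPAGT1 on replicate A (10.13), and on vehicle MAN1A1 on replicate B (8.20).

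The response to 2DG differed between the lines, by the interaction test in limma, for 31 genes. The log2 difference, MDA-MB-231 minus MCF10A, was positive for MGAT1 (0.85), MGAT5 (0.76), MAN1A1 (0.63), ALG8 (0.57), DHDDS (0.53), DOLK (0.48), DOLPP1 (0.48), DPM2 (0.45), ALG2 (0.45), ALG13 (0.40), RPN1 (0.39), ALG3 (0.38), OSTC (0.37), MOGS (0.28), GMPPA (0.25), DPM1 (0.14) and DAD1 (0.12). It was negative for ALG10 (-1.22), DPAGT1 (-0.95), MGAT4A (-0.72), DPM3 (-0.65), UGGT1 (-0.57), MGAT2 (-0.50), PMM1 (-0.47), UGGT2 (-0.46), MPDU1 (-0.41), ALG9 (-0.40), MAN1A2 (-0.26), MAGT1 (-0.20), TUSC3 (-0.17) and STT3B (-0.15). These signs hold for the probe sets used. Others were called the opposite way for ALG13 (-0.59 and -0.51), MAN1A2 (0.23) and UGGT2 (1.005 and 0.52). A further one was called the same way for ALG13 (0.88) and MAN1A2 (-0.38). The second DHDDS probe set had no called difference (0.065).

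Probe sets that name several genes, kept out of the comparisons, also had changes with 2DG called in limma at an adjusted p below 0.05. Of those shared by AMIGO3 and GMPPB, the first changed by -1.83 in MCF10A and -1.17 in MDA-MB-231, the second by -0.64 and 0.16, and another by 0.23 and 0.27. For ALG11 and UTP14C, a shared probe set changed by 0.44 and -0.48, and one that adds UTP14A by -0.46 in MCF10A. Which of the named genes changed cannot be told from these probe sets.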

How the results depend on the processing

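Of 51 results for single genes, 41 kept their call and direction under every alternative run, as did 824 of 844 values. Most of the 51 were picked as the largest called changes in these same arrays, and many alternatives left out 1 array. The tally therefore says little about weaker calls. Those of DOLPP1 in MDA-MB-231 and of the DAD1 difference, both often lost when an array was left out, are not in it. For genes with a single probe set, the alternatives that change the probe set could not alter the value. The count of responses more positive in MDA-MB-231 was 17, and 11 without shared probe sets, which leaves 33 genes. Directions reversed with the mean of all probe sets for MAN1A2 (0.56 in MCF10A, 0.52 in MDA-MB-231), TUSC3 (-0.0185 and -0.4305), UGGT1 (0.17 in MDA-MB-231) and MGAT4A (0.29 in MDA-MB-231), and without shared probe sets for ALG9 (0.34 in MDA-MB-231) and TUSC3 (-0.16 and -1.02). These alternatives read other probes. Leaving out each array gave 17 to 18 higher and 17 lower genes in MCF10A, 15 to 17 and 17 to 18 in MDA-MB-231, 15 to 17 and 12 to 15 for the difference of response, 16 to 17 each way for the lines on vehicle, and 19 to 21 and 17 to 18 under 2DG. Same-letter correlations of deviations from the group means were small, from 0.0401 to 0.0877 in MCF10A and from -0.0992 to 0.0194 in MDA-MB-231. Between different letters they ran from -0.117 to 0.0686 and from -0.0699 to 0.089. In MCF10A every same-letter value was positive, and a weak pairing by letter there was not tested beyond the block fit. A replicate block gave 18 higher and 17 lower genes in MCF10A, 15 and 19 in MDA-MB-231, and 15 and 12 for the difference, and 10645 and 9897 calls over all genes against 10721 and 10057. The block could not be fitted to the line comparisons, where it lies within a line, and the fit on only the groups compared has no form for the difference. No detection call came with the RMA values, so how far dim probe sets stand above background is unknown.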
